A study of Mus musculus with 9 samples.

Results

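The metallothionein genes *Mt1* and *Mt2*, the zinc-sensing transcription factor gene *Mtf1*, the zinc exporter gene *Slc30a1* (ZnT1) and the zinc importer gene *Slc39a14* (ZIP14) were followed in mouse liver RNA. They are 5 of the 51912 genes in the deposited table and were picked by gene symbol after results of the same comparison had been seen, so their group comparison is a description here. The livers came from 9 mice that had been fasted, all *Apoe*-/-, *Ndst1* f/f and *Alb-Cre*+ and backcrossed onto C57Bl/6. 5 had been injected intraperitoneally with an antisense oligonucleotide (ASO) against apoC-III and 4 with a control ASO, at 50 mg/kg/week over 8 weeks. Both groups lacked *Apoe* in all cells and had *Ndst1*, a heparan sulfate sulfotransferase gene, deleted in hepatocytes by a Cre driven from the albumin promoter, so that no liver had the wild-type genotype. Neither the age of the animals nor the diet of these 9 was given beside the RNA sequencing. The design counts mice, and each liver was taken as 1 mouse.

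Metallothioneins are small cysteine-rich proteins that bind zinc and copper, and the liver is one of their main sites of synthesis. The zinc-finger factor MTF-1 binds metal response elements in the promoters of *Mt1*, *Mt2* and *Slc30a1* when cellular zinc rises. Glucocorticoids, fasting and inflammatory cytokines also raise hepatic metallothionein mRNA, and interleukin 6 raises ZIP14, which carries zinc and non-transferrin-bound iron into hepatocytes.

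*Mt2* (ENSMUSG00000031762, chr8:94172664-94173568, + strand, GRCm38) and *Mt1* (ENSMUSG00000031765, chr8:94179082-94180327, + strand) are neighbors, with 5513 bases between the end of the first and the start of the second. The other 3 lie apart from them, *Mtf1* (ENSMUSG00000028890) at chr4:124802104-124849800 on the + strand, *Slc30a1* (ENSMUSG00000037434) at chr1:191906767-191913247 on the + strand and *Slc39a14* (ENSMUSG00000022094) at chr14:70303469-70351425 on the - strand. The bases just before the start of *Mt1*, *Mt2* and *Slc30a1* are shown because these are the members known as MTF-1 targets and because *Mt1* and *Mt2* moved together between livers. They are RefSeq promoter windows of build GRCm38.p6, + strand, cut at the RefSeq or the GENCODE start, whichever comes first. They lie at chr8:94178839-94179081 for *Mt1*, chr8:94172368-94172617 for *Mt2* and chr1:191906531-191906766 for *Slc30a1*. For *Mt2* the cut is at the RefSeq start, and the bases from there to the GENCODE start are not shown. Capitals mark the metal response element core, searched as TGCACNC or TGCGCNC on both strands, and no marked match overlaps another.
Mt1: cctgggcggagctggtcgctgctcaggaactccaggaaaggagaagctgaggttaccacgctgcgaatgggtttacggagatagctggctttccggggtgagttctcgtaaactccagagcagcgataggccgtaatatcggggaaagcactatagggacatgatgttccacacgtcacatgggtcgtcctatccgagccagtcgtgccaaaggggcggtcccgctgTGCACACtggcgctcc
Mt2: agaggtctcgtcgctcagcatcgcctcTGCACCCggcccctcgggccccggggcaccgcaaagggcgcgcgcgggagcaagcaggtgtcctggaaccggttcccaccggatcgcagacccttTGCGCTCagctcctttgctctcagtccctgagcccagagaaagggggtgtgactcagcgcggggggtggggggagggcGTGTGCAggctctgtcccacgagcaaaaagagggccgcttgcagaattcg
Slc30a1: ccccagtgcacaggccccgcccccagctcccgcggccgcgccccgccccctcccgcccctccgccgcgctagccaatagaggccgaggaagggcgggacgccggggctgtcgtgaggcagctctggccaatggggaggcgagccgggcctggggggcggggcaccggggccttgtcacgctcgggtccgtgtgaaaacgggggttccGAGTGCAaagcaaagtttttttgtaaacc

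In the 250 bases before the RefSeq start, *Mt2* held 3 matches, beginning 223, 128 and 50 bases upstream, the last on the - strand. *Mt1* held 1, beginning 23 bases upstream, and *Slc30a1* held 1 on the - strand, beginning 43 bases upstream. No match lay in the *Mtf1* window, and *Slc39a14* was not among the 4 members matched to the RefSeq table. Among all 32851 windows of this length, 21.4% held 1 match or more, 5.17% held 2 or more and 1.26% held 3 or more. In the full windows of 300 bases, which also run past the RefSeq start, *Mt1* held 3 matches, *Mt2* 4 and *Slc30a1* 2. For *Mt1* these include matches at bases 3 to 9 and 21 to 27 counted from that start. Its upstream count thus depends on where the start is annotated. Of all windows of 300 bases, 7.11% held 2 or more, 1.97% held 3 or more and 0.517% held 4 or more. A match of these letters is a description of the sequence and not a bound site.

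The deposited unit was TPM (transcripts per 1000000, a length-corrected share of the library), which keeps no sequencing depth, so that the depth behind each value is unknown and no counting interval could be given. The 7SL RNA genes *Rn7s1* and *Rn7s2* took 64.0% to 83.6% of the TPM and nuclear protein-coding genes only 1.94% to 8.64%, with the lowest share in control ASO replicate 4. Values were therefore rescaled to 1000000 over the nuclear protein-coding genes of each liver and divided by a median-of-ratios factor, which was 0.93 to 1.44 in 8 livers and 0.50 in control ASO replicate 4. The result is called the rescaled value below, and because both scales are per length, levels of different genes can be set side by side. *Apoc3*, the ASO target, was 87.4% lower in mean rescaled value in apoC-III ASO than in control ASO livers, with no overlap (two-sided exact permutation p = 0.0159, the smallest possible for 5 against 4). All 10 hepatocyte markers were well expressed, with summed rescaled values of 28818 to 60194 in apoC-III ASO and 39276 to 52227 in control ASO livers. In bulk liver, fewer cells of a type and less RNA per cell cannot be told apart.

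*Slc39a14* had the highest median rescaled value of the 5 genes, 167 over the 9 livers, followed by *Mt1* at 19.2, *Mtf1* at 9.22, *Mt2* at 7.26 and *Slc30a1* at 4.09. *Slc39a14* lay above *Mt2*, *Mtf1* and *Slc30a1* in 9 of 9 livers, and *Mt1* lay above *Mt2* and *Slc30a1* in 9 of 9. *Mtf1* and *Mt2* were not separated, since *Mt2* was the higher in 4 of 9 livers. *Mt1* exceeded *Slc39a14* in 2 livers only, control ASO replicates 3 and 4, where the ratio of *Mt1* to *Slc39a14* was 1.33 and 1.46 against 0.0431 to 0.231 in the other 7.

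*Mt1* and *Mt2* differed more between livers of the control ASO group than between the groups. Control ASO replicates 3 and 4 carried high levels of both, whereas control ASO replicates 1 and 2 were at or below most apoC-III ASO livers. The rescaled value of *Mt1* in control ASO replicates 1 to 4 was 11.5, 8.58, 262 and 217. In apoC-III ASO replicates 1 to 5 it was 19.2, 15.0, 4.604, 24.7 and 37.1. The groups overlapped, with all 5 apoC-III ASO livers below the 2 high control livers and 4 of the 5 above both low control livers. *Mt1* in control ASO replicates 3 and 4 was 17.5-fold and 14.5-fold above the median of the other 7 livers, and the lower of the pair was 5.85-fold above the highest of those 7.

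*Mt2*, the other hepatic metallothionein gene, was high in the same 2 livers. Its rescaled value was 4.004, 4.55, 138 and 102 in control ASO replicates 1 to 4. It was 6.42, 7.26, 3.32, 14.2 and 24.1 in apoC-III ASO replicates 1 to 5. Again the groups overlapped and control ASO replicates 3 and 4 stood alone, 21.5-fold and 15.9-fold above the median of the other 7 livers. Across the 5 apoC-III ASO livers, replicate 3 was lowest and replicate 5 highest for both genes on the rescaled scale. In TPM as deposited replicate 3 was again the lowest for both. The highest was then replicate 1 for *Mt1*, at 1.38 TPM, and replicate 4 for *Mt2*, at 0.737 TPM.

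**Figure D1:**
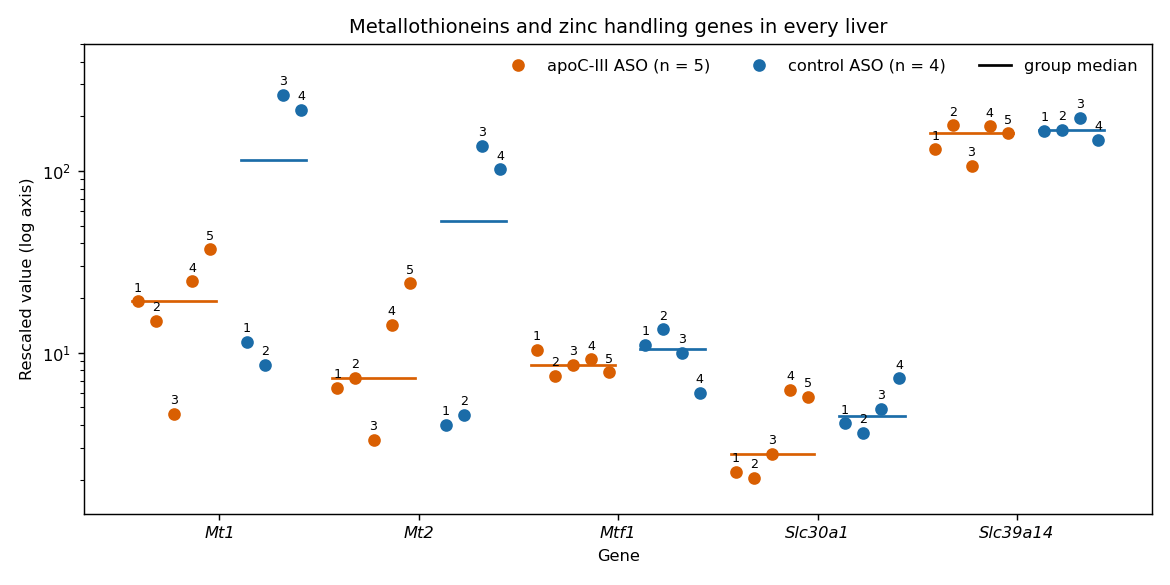
Rescaled value (log axis) of each of the 5 genes in each liver, with replicate numbers above the points and a line at each group's median (apoC-III ASO in orange, n = 5, control ASO in blue, n = 4). *Mt1* and *Mt2* split the control ASO group into replicates 1 and 2, at 11.5 and below, and replicates 3 and 4, at 102 and above, while *Slc39a14* stays between 107 and 196.

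The mean rescaled value of *Mt1* was 20.1 ± 12.02 (SD, n = 5) in apoC-III ASO and 125 ± 134 (SD, n = 4) in control ASO livers. That of *Mt2* was 11.1 ± 8.33 and 62.1 ± 68.4. In the control ASO group the SD exceeded the mean for both genes, with a coefficient of variation of 107% and 110%. In limma's fit on log2(rescaled value + 1), the log2 difference, apoC-III ASO minus control ASO, was -1.53 for *Mt1* (SE 0.99, adjusted p = 0.901) and -1.32 for *Mt2* (SE 0.99, adjusted p = 0.909). Neither passed the limits for a call, an adjusted p (Benjamini-Hochberg) below 0.05 and a change over 1.5-fold.

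The sign of both differences rested on the 2 high control livers. Without control ASO replicate 3 the difference was -0.74 for *Mt1* and -0.50 for *Mt2*, and without control ASO replicate 4 it was -0.83 and -0.65. Without both, a choice made after their values were seen, it turned positive, at 0.70 (SE 0.61) for *Mt1* and 0.93 (SE 0.58) for *Mt2*, with an adjusted p of 0.999 for each in limma's fit. Leaving out control ASO replicate 2 instead gave -2.33 and -2.05, and leaving out control ASO replicate 1 gave -2.20 and -2.10.

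**Figure D2:**
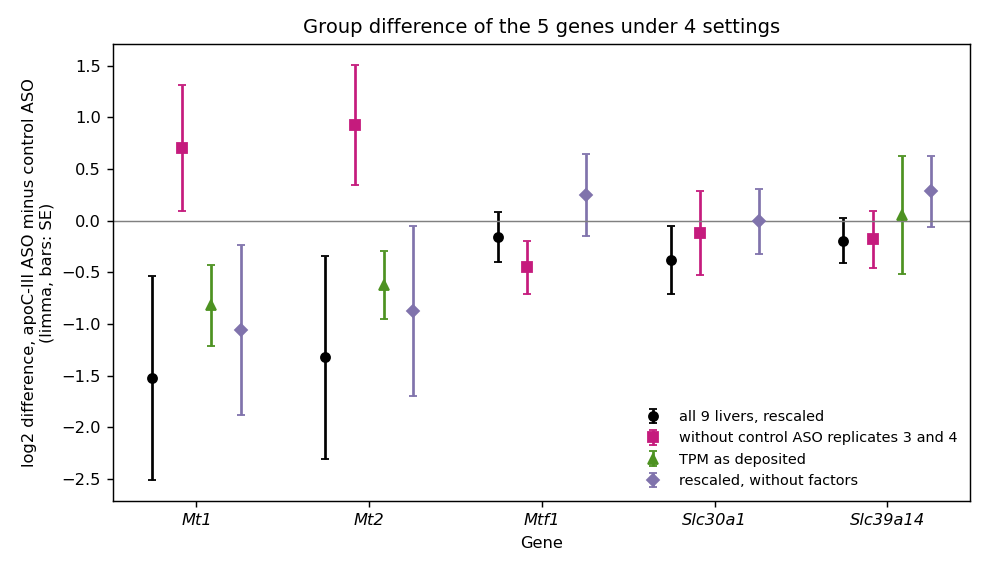
Group difference of the 5 genes on the log2 scale (apoC-III ASO minus control ASO, limma, bars are SE) for all 9 livers on the rescaled scale, without control ASO replicates 3 and 4, for TPM as deposited and for rescaling without the median-of-ratios factors. *Mt1* moves from -1.53 to 0.70 and *Mt2* from -1.32 to 0.93 when the 2 livers are left out, and a missing point is a gene whose mean fell under the filter.

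The 2 high livers also stood above the rest in TPM as deposited. *Mt1* was at 13.8 and 2.09 TPM in control ASO replicates 3 and 4, against 0.217 to 1.38 TPM in the other 7. *Mt2* was at 7.28 and 0.983 TPM, against 0.157 to 0.737 TPM. Control ASO replicate 4 was thus above the rest by a smaller margin on this scale, in which nuclear protein-coding genes held the smallest share of its TPM.

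Among all 11968 genes tested, the SD of log2(rescaled value + 1) within the control ASO group placed *Mt2* 32nd (SD 2.61) and *Mt1* 35th (SD 2.58), against a median gene of 0.416. Within the apoC-III ASO group they were 612th (0.98) and 505th (1.04), with a median gene of 0.413. *Mtf1*, *Slc30a1* and *Slc39a14* had control ASO SDs of 0.44, 0.36 and 0.16. Each of control ASO replicates 3 and 4 was also set against the mean of control ASO replicates 1 and 2, on the value + 1 scale. At least 5-fold higher in each were 13 of the 11968 genes (0.109%), *Mt1* and *Mt2* among them at 19.8-fold and 19.5-fold. *Mup10* had the largest ratio, 45.5-fold, and was also at 8090 and 26284 in apoC-III ASO replicates 3 and 4. This split of the livers was taken from *Mt1* and *Mt2*, so the place of these 2 genes in the count is no separate result. The apoC-III ASO livers were not used in it.

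The ratio of *Mt1* to *Mt2* ran from 1.39 to 2.99 over livers whose levels differed 56.9-fold for *Mt1* and 41.6-fold for *Mt2*. It was 2.99, 2.06, 1.39, 1.73 and 1.54 in apoC-III ASO replicates 1 to 5 and 2.86, 1.89, 1.90 and 2.13 in control ASO replicates 1 to 4. The mean ratio was 1.94 ± 0.637 (SD, n = 5) and 2.19 ± 0.459 (SD, n = 4), so the groups differed by less than the spread between livers. The high livers, at 1.90 and 2.13, lay within the range of the low ones.

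**Figure D3:**
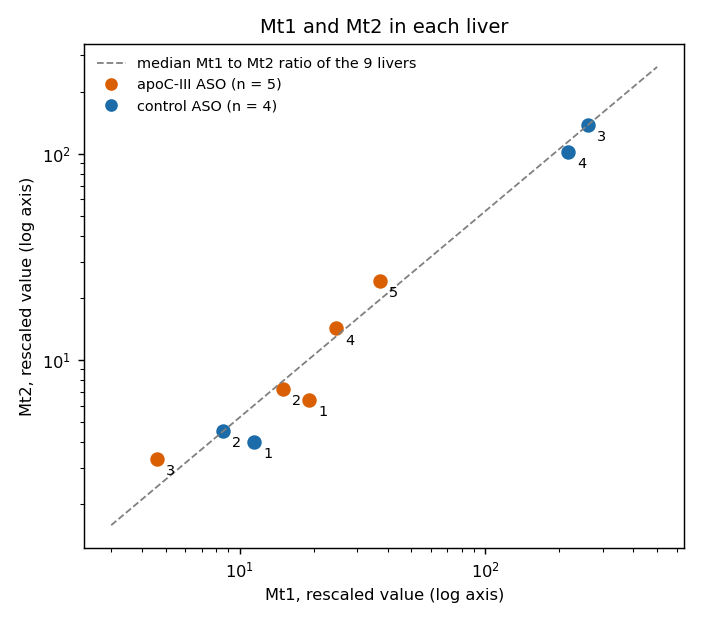
*Mt2* against *Mt1* (rescaled values, both log axes) in the 9 livers, numbered by replicate, with a dashed line at the median *Mt1* to *Mt2* ratio of 1.90. The points follow the line from apoC-III ASO replicate 3 (4.604 and 3.32) to control ASO replicate 3 (262 and 138), and control ASO replicates 3 and 4 form a separate cluster.

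Control ASO replicates 3 and 4 formed a separate cluster for *Mt1* and *Mt2*, so pairs with either gene were correlated over the other 7. That set was chosen after these values were seen, and all 9 livers had been planned. The 3 pairs among *Mtf1*, *Slc30a1* and *Slc39a14* were correlated over all 9. Over the 7, 5 of which were apoC-III ASO livers, *Mt1* and *Mt2* on the log2 scale had a Pearson r of 0.915 (exact permutation p = 0.00159, adjusted over 10 pairs of members 0.0159) and a Spearman rho of 0.929 (exact permutation p = 0.00675, adjusted 0.0675). Leaving out the 2 livers farthest from the median of *Mt1* left r at 0.869 over 5 livers. For the other 9 pairs, 6 over 7 livers and 3 over 9, the lowest adjusted exact permutation p of Pearson's r was 0.503. At the sequence level, *Mt1* and *Mt2* shared 0 of their transcripts' stretches of 31 bases, the default length by which kallisto assigns reads. *Mt2* shared 333 of its 573 stretches (58.1%) with other genes, among them *Gm45774*, an antisense gene over *Mt2* that was listed at 0 TPM in 8 of 9 livers and at 0.00408 TPM in control ASO replicate 3. For *Mt1* the shared count was 0 of 1273, and for the other 3 members 0.660% to 8.38% were shared.

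Among the summed cell type markers, the stellate cell list lay outside the range of the other 7 livers in both high livers, and its part in the metallothionein levels was not tested. The summed rescaled value of the 6 stellate cell markers was 162 and 245 in control ASO replicates 3 and 4, against 105 to 135 in the other 7 livers. In TPM as deposited this held for neither, at 8.52 and 2.37 against 3.90 to 10.2. Of these 6, only *Dcn* was highest in both, at rescaled values of 123 and 177, which made up most of each sum. *Col1a2* was instead at its lowest of the 9 livers in control ASO replicate 3, at 3.38. None of the 6 was at 0 in any liver. Hemoglobin genes, a sign of blood in the sample, summed to 192 and 2153, against 37.5 to 919 in the other 7. In TPM as deposited the highest sum was instead that of apoC-III ASO replicate 4, at 47.6 against 20.8 in control ASO replicate 4. The 10 hepatocyte markers summed to 44357 and 52227, within the range of the other 7. Sums of the 7 macrophage markers were 116 and 75.2, against 67.6 to 106, and of the 5 endothelial cell markers 110 and 66.5, against 78.5 to 118, so neither list was raised in both. None of the genes of these 3 lists was highest in both. The 11 glucocorticoid-responsive genes summed to 3326 and 8254, against 1452 to 6135, and the 15 acute phase genes to 8839 and 9502, against 5933 to 10967. Of the 11 none was highest in both, and of the 15 only *Crp* was, at 593 and 904 against 278 to 482. In TPM as deposited *Crp* was instead at its lowest in control ASO replicate 4, at 8.72 TPM. Over all genes tested, 2.93% were highest in both high livers on the rescaled scale. Of the 5 members *Mt1* and *Mt2* were, which was fixed in advance because their levels singled out the 2 livers.

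*Mtf1*, which encodes the zinc sensor MTF-1, varied less than *Mt1* and *Mt2* on the rescaled scale. Its coefficient of variation was 13.4% in apoC-III ASO and 30.5% in control ASO livers. Its rescaled value was 10.4, 7.48, 8.58, 9.22 and 7.80 in apoC-III ASO replicates 1 to 5. In control ASO replicates 1 to 4 it was 11.03, 13.5, 10.01 and 6.04. The control ASO group held both the highest and the lowest liver, and the 2 livers with high metallothionein levels were not the highest for *Mtf1*. In TPM as deposited *Mtf1* ran from 0.0582 TPM in control ASO replicate 4 to 0.887 TPM in control ASO replicate 1. The means were 8.69 ± 1.16 (SD, n = 5) and 10.1 ± 3.09 (SD, n = 4), and the log2 difference was -0.16 (SE 0.24, limma adjusted p = 0.966).

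*Slc30a1*, which encodes the plasma membrane exporter ZnT1, had the lowest median of the 5 genes. Its rescaled value was 2.22, 2.05, 2.79, 6.23 and 5.70 in apoC-III ASO replicates 1 to 5. It was 4.09, 3.64, 4.91 and 7.25 in control ASO replicates 1 to 4. Apart from control ASO replicate 4, the highest rescaled values were those of apoC-III ASO replicates 4 and 5, and the groups overlapped. In TPM as deposited control ASO replicate 4 was instead the lowest liver, at 0.0699 TPM. On that scale apoC-III ASO replicate 5, at 0.165 TPM, was below control ASO replicates 1 to 3, at 0.229 to 0.329 TPM. The means were 3.80 ± 2.01 (SD, n = 5) and 4.97 ± 1.61 (SD, n = 4), and the log2 difference was -0.38 (SE 0.33, limma adjusted p = 0.925). In control ASO replicates 3 and 4 *Slc30a1* averaged 1.57-fold its level in control ASO replicates 1 and 2, compared with 23.9-fold for *Mt1* and 28.1-fold for *Mt2*.

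*Slc39a14*, which encodes the importer ZIP14, had the smallest spread of the 5 genes over all 9 livers on the rescaled scale. Within the apoC-III ASO group *Mtf1* had a smaller one (coefficient of variation 13.4% against 20.4%). The rescaled value of *Slc39a14* was 132, 179, 107, 176 and 161 in apoC-III ASO replicates 1 to 5. In control ASO replicates 1 to 4 it was 167, 169, 196 and 149. On this scale the control ASO livers lay inside or just above the range of the apoC-III ASO livers. ApoC-III ASO replicate 3 opened that range at the low end, as it did for *Mt1* and *Mt2*. In TPM as deposited the lowest liver was instead control ASO replicate 4, at 1.43 TPM, and the highest control ASO replicate 1, at 13.4 TPM. The apoC-III ASO livers were then at 4.64 to 11.8 TPM, with replicate 5 the lowest of them. The mean rescaled values were 151 ± 30.8 (SD, n = 5) and 170 ± 19.6 (SD, n = 4), and the log2 difference was -0.19 (SE 0.21, limma adjusted p = 0.948).

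Taking the 5 genes as a list, 0 of 5 were called, 5 of 5 had a lower fitted level in apoC-III ASO livers, and 0 of 5 had groups that did not overlap. Their median log2 difference was -0.38, beside a median of 0.00 over all genes tested. Of the 11968 genes tested, 2 (0.0167%) were called, both lower, *Apoc3* and *Anpep*, and 219 (1.83%) had groups that did not overlap. All 5 members passed the filter of a mean rescaled value of at least 1. The directions of *Mtf1* and *Slc39a14* flipped with scaling, to 0.25 and 0.28 without the median-of-ratios factors, and that of *Slc39a14* also in TPM as deposited, to 0.055. Those scalings moved the median of all genes to 0.41 and 0.11, so that these differences were below the median gene in each.

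The other zinc transporter genes and *Mt3* and *Mt4* formed a list of 24, of which 17 passed the filter and 0 were called. Of the 17, 8 were higher and 9 lower, with a median log2 difference of 0.00. The most expressed were *Slc30a9*, at a mean rescaled value of 60.4 ± 7.96 in apoC-III ASO and 62.8 ± 18.9 in control ASO livers, *Slc39a11*, *Slc39a7*, which encodes an exporter of zinc from the endoplasmic reticulum and Golgi, *Slc39a9* and *Slc30a7*. *Mt3* was listed at 0 in all 9 livers, and *Mt4* was above 0 only in control ASO replicate 3.

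*Slc39a4*, which encodes the importer ZIP4, was the one gene of this list whose groups did not overlap. Its rescaled value was 15.5, 10.8, 4.21, 11.5 and 8.92 in apoC-III ASO replicates 1 to 5. In control ASO replicates 1 to 4 it was 20.1, 18.9, 17.7 and 20.7. Every control ASO liver lay above every apoC-III ASO liver on this scale but not in TPM as deposited, where control ASO replicate 4 was at 0.200 TPM against 0.199 to 1.12 TPM in apoC-III ASO livers, and the log2 difference was -0.95 (SE 0.30, limma adjusted p = 0.860), which was not called. The range of the adjusted p over the alternatives was 0.507 to 0.999.

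*Slc39a3* (ZIP3) and *Slc39a10* (ZIP10), both importers, were with *Slc39a4* the 3 largest differences of the list, with overlapping groups and no call. *Slc39a10* was at 1.74 ± 1.07 (SD, n = 5) in apoC-III ASO and 4.01 ± 1.76 (SD, n = 4) in control ASO livers, with a log2 difference of -0.89 (SE 0.32, limma adjusted p = 0.860). It was the 1 gene of the 17 that, like *Mt1* and *Mt2*, was highest in both control ASO replicates 3 and 4, at 3.71 and 6.58 against 0.832 to 3.54, although in TPM as deposited control ASO replicate 4 was at 0.0635 TPM, below control ASO replicate 1 at 0.243 TPM. *Slc39a3* was at 5.31 ± 2.62 and 2.59 ± 2.81, with a log2 difference of 0.96 (SE 0.46, limma adjusted p = 0.882).

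**Figure D4:**
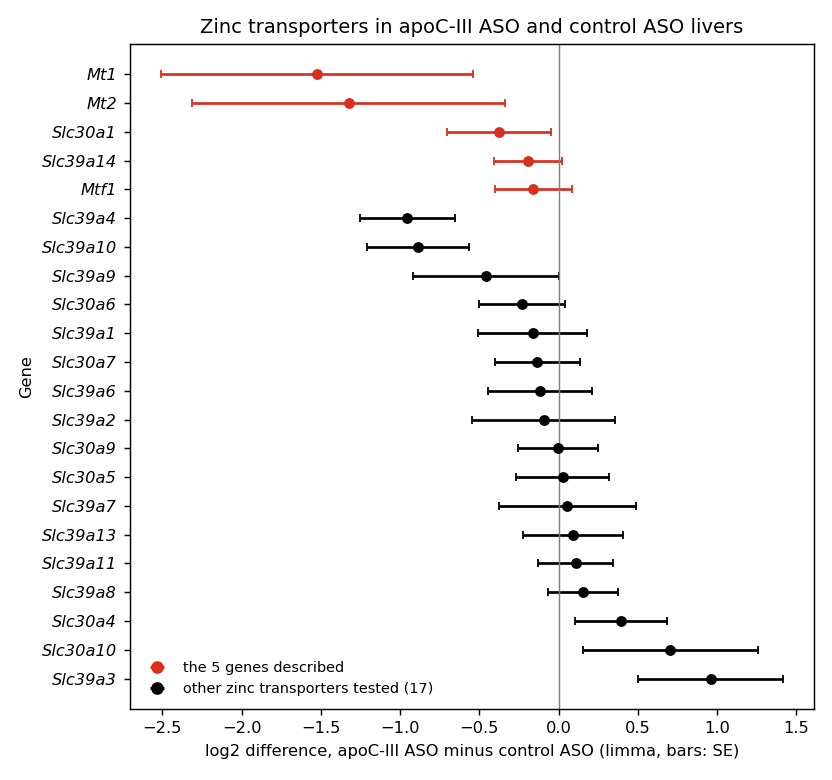
Log2 difference (apoC-III ASO minus control ASO, limma on rescaled values, bars are SE) of the 5 genes described, in red, and of the 17 other zinc transporter genes that passed the filter, in black. *Mt1* and *Mt2* have the longest bars, with an SE of 0.99 each, and *Slc39a4* at -0.95 and *Slc39a3* at 0.96 mark the ends of the other genes.

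The genes whose values across all 9 livers were most like *Mt1* were *Smim8* (Pearson r 0.952), *Man1a* (0.945), *Rtn4ip1* (0.936), *Sult1a1* (0.900) and *Ucp2* (0.884). For *Mt2* they were *Smim8* (0.970), *Man1a* (0.940), *Myom1* (0.901), *Rtn4ip1* (0.901) and *Fdxr* (0.898). These r values describe likeness over 9 livers and lean on the 2 high ones. Over the other 7 livers they were 0.695 to 0.889 for the *Mt1* list and 0.527 to 0.862 for the *Mt2* list. In size these genes moved less than the metallothioneins, with control ASO replicates 3 and 4 averaging 1.5-fold to 4.6-fold the mean of the other 7 livers. *Man1a*, which encodes a mannosidase that trims N-glycans, was at 94.5 and 89.4 in the 2 high livers, against 46.9 to 73.4 in the rest.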

How the data were processed

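Ribo-depleted, stranded libraries of liver RNA from 9 mice had been read single-end by the authors, and the labels give no batch. The unit deposited was TPM. The submitters' processing notes name kallisto 0.43.1 and GRCm38. The study's methods name STAR, featureCounts and DESeq2, whose counts were not used here. Of the 51912 gene identifiers, 51719 (99.63%) matched GENCODE M21. Nuclear protein-coding TPM (21857 genes) was rescaled to 1000000 per liver and divided by median-of-ratios factors over 12263 genes, because noncoding RNA took most of the TPM. Genes with a mean of at least 1 (11968) were tested with limma 3.58.1 in R 4.3.3 (lmFit, eBayes with trend) on log2(value + 1), without covariates and with Benjamini-Hochberg adjustment over all of them. Fold changes on this scale understate the change of low genes. The steps were tested on simulated data. Summaries were made in Python 3.11.15 with scipy 1.17.1 and pandas 2.3.3. The members, lists and alternatives were chosen with earlier results of these data known. Named besides the members were, of the zinc list, the 5 highest means and 3 largest changes, the 3 largest changes of each other list, and the 5 genes most like *Mt1* and *Mt2* by Pearson's r. Gm45774, Anpep, Mt3, Mt4, Dcn, Col1a2, Crp and Mup10 were named after their values were seen. Promoter windows came from RefSeq tables of GRCm38.p6. Lists of cholangiocyte and pancreas markers were also fixed and gave 0 calls.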

Additional observations from a re-analysis of the deposited data

Results flagged for a closer look

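Of 26 groups of values examined, for the 5 genes and the named zinc transporters, 2 held a liver far from the others by Dixon's criterion, which chance flags in about 1 of 20 groups. *Slc39a9* (ZIP9) was at a rescaled value of 57.7 in control ASO replicate 4, against 13.4 to 15.8 in the other 3 control ASO livers. In TPM as deposited the same liver was the lowest of the 4 for this gene, at 0.557 TPM against 0.835 to 1.08 TPM. *Slc39a3* (ZIP3) was at 6.80 in control ASO replicate 3, against 1.01 to 1.45 in the other 3. *Mt1* and *Mt2* were not flagged, since 2 of the 4 control ASO livers were high together.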

How the results depend on the processing

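None of the 5 genes and none of the zinc list was called under any alternative run. With control ASO replicates 3 and 4 left out, *Mt1* reversed to 0.70 and *Mt2* to 0.93. TPM as deposited reversed *Slc39a14* to 0.055 (SE 0.57), and rescaling without the factors reversed *Mtf1* to 0.25 and *Slc39a14* to 0.28. The cause was not tested. Leaving out 1 liver at a time gave -2.33 to -0.74 for *Mt1*, -2.10 to -0.50 for *Mt2*, -0.37 to -0.019 for *Mtf1*, -0.55 to -0.21 for *Slc30a1* and -0.26 to -0.076 for *Slc39a14*. Adjusted p over the alternatives was 0.521 or above. *Mtf1* and *Slc30a1* had no value in TPM as deposited or with factors over all genes, where their means fell under the filter, nor *Slc30a1* at a minimum of 5. Whether replicate numbers pair the livers could not be settled from the values. The r of same-numbered livers was 0.0280 to 0.190, and 2 of 4 control ASO livers correlated best with their own number. With a replicate block, *Mt1* was at -1.80, *Mt2* -1.66, *Mtf1* -0.13, *Slc30a1* -0.52 and *Slc39a14* -0.22, with 0 of 5 called. No control ASO liver carries the number of apoC-III ASO replicate 5, so these differences equal those with that liver left out. The *Mt1* and *Mt2* r was 0.826 in TPM as deposited, 0.869 to 0.949 with 1 liver left out and 0.985 over all 9 livers, and *Apoc3* was 86.5% to 88.6% lower. Depth is unknown, and the group sizes limit what could be detected.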

Other observations

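Copper, like zinc, is bound by metallothioneins. Of the 8 copper handling genes, 0 were called, 3 had a higher and 5 a lower level with the apoC-III ASO, with a median log2 difference of -0.21. The largest differences were those of *Slc31a2* (-0.50, SE 0.33), *Cox17* (-0.47, SE 0.34) and *Atox1* (-0.42, SE 0.21). Their summed rescaled value was 1477 and 1445 in control ASO replicates 3 and 4, against 804 to 1186 in the other 7 livers, but 77.9 and 13.9 against 32.1 to 95.3 in TPM as deposited. On the rescaled scale *Cp*, which encodes ceruloplasmin, was the 1 of the 8 that was highest in both.

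Other lists that touch metallothionein control had 0 calls each. Of 11 glucocorticoid-responsive genes, 6 were higher and 5 lower (median 0.06), with the largest log2 differences for *Dusp1* at 1.23 (SE 0.40), *Per1* at -0.48 and *Tat* at -0.47. Of 15 acute phase genes, 7 were higher and 8 lower (median -0.12), with *Orm3* at -0.92 (SE 0.27), *Saa2* at 0.89 and *Saa3* at 0.86. Of 16 clock genes tested, 4 were higher and 12 lower (median -0.31), with *Per2* at -2.31 (SE 0.77), *Ciart* at -2.31 (SE 1.26) and *Arntl* at 2.02 (SE 0.73). These 3 differed between apoC-III ASO replicates 1 to 3 and replicates 4 and 5. Rescaled *Ciart* was 3.11 to 3.84 in the former and 198 and 282 in the latter, against 69.8 to 173 in control ASO livers. *Arntl* was 11.1 to 30.9 and 0.740 and 2.74, against 0.320 to 2.46. *Per2* was 3.35 to 8.31 and 25.1 and 40.5, against 12.1 to 130. Of 9 antioxidant response genes tested, 8 were higher and 1 lower (median 0.11), with *Gsta1* at 3.09 (SE 0.49, limma adjusted p = 0.177), *Gsta2* at 0.99 and *Nqo1* at 0.57.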
